A study of Mus musculus with 24 samples.

Results

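The comparison described here set glucagon against insulin in mouse hepatocytes that carried a hairpin against FOXA2 and had been given the FXR agonist GW4064. It rests on 6 of the 24 arrays of the series, chosen by their labels alone: the 3 arrays with the FOXA2 hairpin, glucagon and GW4064, and the 3 with the FOXA2 hairpin, insulin and GW4064. All cells were primary hepatocytes of male C57Bl6J mice, cells taken from the liver rather than a line, kept in medium of 1 g/l glucose with 100 nM dexamethasone. An adenovirus at a multiplicity of infection of 5 carried the hairpin, shFOXA2.3 in these 6 samples and shlacZ, against a bacterial gene, in the control cells used for comparison below. Insulin was given at 1 nM, glucagon at 100 nM and GW4064 at 2 µM, all for 4 h. The samples of each group were numbered as experiments 1 to 3, each described as done on hepatocytes pooled from 3 mice. Whether the arrays of a number came from 1 pool of cells split over the treatments was not stated. Expression was measured on Affymetrix MoGene 2.0 ST arrays. No group lacked both hormones. Every rise below is therefore a level higher with glucagon than with insulin, and which hormone moved it cannot be told apart.

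Glucagon is the hormone of fasting. Its receptor on hepatocytes raises cyclic AMP, protein kinase A (PKA) then phosphorylates the transcription factor CREB, and genes of glucose production are transcribed. Insulin, the hormone of the fed state, acts through AKT to keep FOXO1 out of the nucleus and through the ERK kinases to switch on growth-related immediate-early genes. FOXA2 is a forkhead factor that opens liver chromatin, and FXR (gene Nr1h4) senses bile acids in the nucleus. The series' title poses the question of how PKA and FOXA2 bear on what FXR does to gluconeogenic genes in fasting.

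The upstream sequences of 6 genes on which the results turn are shown because CREB and the forkhead factors are known to read short motifs in promoters. Each run holds the 250 bases before the gene's start, from RefSeq on build GRCm38.p6, 5′ to 3′ on the strand of the gene. In the first 4, capitals mark the core of the cyclic AMP response element, TGACG or its reverse complement CGTCA. Pck1 lies at chr2:173152823-173153072 (plus strand), Nr4a3 at chr4:48045055-48045304 (plus), Nr4a1 at chr15:101266596-101266845 (plus) and Ppargc1a at chr5:51567726-51567975 (minus). In the last 2, capitals mark the forkhead motif TGTTTNC or its reverse complement. G6pc lies at chr11:101367466-101367715 (plus) and Foxa1 at chr12:57546112-57546361 (minus).

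Pck1: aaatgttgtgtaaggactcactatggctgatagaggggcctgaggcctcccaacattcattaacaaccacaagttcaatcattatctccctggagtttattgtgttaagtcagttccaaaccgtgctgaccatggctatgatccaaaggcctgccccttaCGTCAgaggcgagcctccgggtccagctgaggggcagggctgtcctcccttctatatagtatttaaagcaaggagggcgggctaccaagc
Nr4a3: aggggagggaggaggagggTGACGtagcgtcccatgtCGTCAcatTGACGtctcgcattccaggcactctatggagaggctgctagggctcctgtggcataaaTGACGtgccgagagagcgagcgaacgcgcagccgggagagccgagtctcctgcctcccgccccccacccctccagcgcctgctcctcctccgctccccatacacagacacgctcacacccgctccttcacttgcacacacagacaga
Nr4a1: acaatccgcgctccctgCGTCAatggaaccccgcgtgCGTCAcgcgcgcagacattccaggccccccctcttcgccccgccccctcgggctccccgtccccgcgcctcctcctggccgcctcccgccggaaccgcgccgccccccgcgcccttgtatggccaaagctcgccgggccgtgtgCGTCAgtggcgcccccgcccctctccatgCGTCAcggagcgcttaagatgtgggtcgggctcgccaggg
Ppargc1a: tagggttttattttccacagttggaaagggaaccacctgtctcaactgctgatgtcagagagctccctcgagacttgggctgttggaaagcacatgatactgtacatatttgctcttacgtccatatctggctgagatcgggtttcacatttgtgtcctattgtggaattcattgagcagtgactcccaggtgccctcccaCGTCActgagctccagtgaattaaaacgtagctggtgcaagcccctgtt
G6pc: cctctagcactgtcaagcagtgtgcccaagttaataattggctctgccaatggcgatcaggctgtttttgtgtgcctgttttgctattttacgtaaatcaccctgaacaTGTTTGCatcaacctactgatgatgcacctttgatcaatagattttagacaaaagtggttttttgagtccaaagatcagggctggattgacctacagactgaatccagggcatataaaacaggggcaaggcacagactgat
Foxa1: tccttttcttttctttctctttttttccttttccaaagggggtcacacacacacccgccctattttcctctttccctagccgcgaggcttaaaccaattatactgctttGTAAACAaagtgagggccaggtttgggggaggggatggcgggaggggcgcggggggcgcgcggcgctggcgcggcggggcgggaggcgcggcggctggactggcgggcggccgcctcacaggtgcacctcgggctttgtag

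Nr4a3 and Nr4a1 each held 4 cyclic AMP cores, and Pck1 and Ppargc1a held 1 each. None of these 4 windows held the forkhead motif, and those of G6pc and Foxa1 held 1 forkhead motif and no cyclic AMP core. The core stood in 17.77% of the 32851 promoters of the table and in 23.2% of the 16990 tested genes with a promoter there. It stood in 71 of the 249 genes that rose (28.51%) and in 126 of the 380 that fell (33.16%). The forkhead motif stood in 18.11% of the tested genes, in 50 of those that rose (20.08%) and in 57 of those that fell. These are matches of letters, not sites of binding, and the shares are descriptions with no test. The windows of Fbp1, Foxa2, Tat, Got1 and Irs2 held neither motif.

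Levels are given on the log2 scale of the deposited values. The median over all probe sets, 3.25, served as a rough mark of the array's floor, where a gene gives little signal of its own. It is not a lower limit, since values reached down to 1.46. Levels called near, close to or at the floor lay around this mark or below it, and a real signal there was not excluded. Pairs of arrays within either group correlated at 0.989 to 0.994 over all 22180 genes tested. Foxa2 itself, the target of the hairpin, was lower with the FOXA2 hairpin than with the lacZ hairpin in each of the 6 pairs of arrays under GW4064. The differences were -0.44, -0.48 and -0.23 under insulin and -0.59, -0.54 and -0.08 under glucagon, in the order of the experiments, so the pairs of experiment 3 differed least. Their mean was -0.39 (SE 0.10), a change of -23.9%, with a limma adjusted p of 0.648, or 0.192 with the experiment as a block. Between the hairpins under GW4064, 0 genes passed, with or without the block, and 1350 had an unadjusted p under 0.05 (6.09%). The hepatocyte products albumin (Alb, 12.98 to 13.13), transthyretin (Ttr, 10.62 to 11.28) and apolipoprotein A1 (Apoa1, 10.57 to 10.84) were high on all 6 arrays. Of 11 measured hepatocyte markers 3 passed and rose (Pck1, Fbp1 and Foxa2), 7 with the block, and the mean level of the 11 lay between 7.92 and 8.50 under insulin and between 8.86 and 9.59 under glucagon. That mean includes the large differences of Pck1 (5.98), Fbp1 (1.71) and Foxa2 (1.15), so it does not measure hepatocyte content. Alb (-0.03), Serpina1a (-0.06), Apoa1 (0.13), Apoh (0.21) and Ttr (0.28) differed little. Fgb (0.49), Cps1 (0.87) and Hnf4a (0.93) differed more but did not pass. Marker genes of 6 other cell types were also measured (macrophage, stellate, endothelial, bile duct, lymphoid and, by 1 gene only, erythroid), and none passed the test between glucagon and insulin. With the block 1 stellate marker rose, and 1 endothelial and 1 bile duct marker fell. Of the 16 macrophage markers, 14 had group means below 4, among them Adgre1 and Clec4f, but Cd68 (8.38 to 10.10) and Cd14 (7.29 to 8.39) did not. The mean level of the 16 lay between 3.36 and 3.60 on the insulin arrays and between 3.53 and 3.68 on the glucagon arrays. Group means below 4 were also found for 9 of 12 stellate, 6 of 13 endothelial, 4 of 7 bile duct and all 9 lymphoid markers. Others gave clear signal: endothelial Cdh5 (6.41 to 7.99) and Lyve1 (5.96 to 7.76), stellate Dcn (5.93 to 6.44) and Acta2 (4.60 to 7.18). So did bile duct Cldn4 (7.48 to 8.60) and Sox9 (6.47 to 8.31). In such bulk samples, fewer cells of a type and less RNA per cell cannot be told apart.

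GW4064 was present on both sides of the comparison, so its own effect was looked at in FOXA2-hairpin cells. Averaged over the hormones, 0 of 22180 genes passed between GW4064 and DMSO (limma, all 24 arrays, adjusted p under 0.05), and 593 had an unadjusted p under 0.05 (2.67%). Nr0b2, which encodes the FXR-induced repressor SHP, stood 0.65 higher with GW4064 (SE 0.12, adjusted p = 0.388, 0.0697 with the block). Its levels with GW4064 were 3.59, 3.23 and 3.76 under insulin and 3.67, 3.37 and 3.35 under glucagon, close to the floor. With the experiment as a block 2 genes passed (0.00902%), named here after their values were seen. They were Mybl1 (1.04 higher, limma adjusted p = 0.00431) and Osgin1 (0.82 higher, adjusted p = 0.000254). These are averages over the hormones. Under insulin and glucagon in turn, Mybl1 stood 1.24 and 0.84 higher and Osgin1 0.47 and 1.17 higher. Tested by hormone with the block, Osgin1 passed under glucagon (limma adjusted p = 0.000217) but not under insulin (0.883), and Mybl1 under neither (0.374 and 0.0981). Both genes stood in the list of FXR targets, and Osgin1 also in the list of NRF2 targets. The lists were chosen with earlier results of these data known, so this membership is not an independent check.

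Glucagon against insulin changed 775 genes in these cells, 304 upward and 471 downward, at a limma adjusted p under 0.05. These are 3.49% of the genes tested, 1.37% upward and 2.12% downward. All 775 had the same sign in the 3 experiments, as did 40.2% of all genes, and in 770 the 3 glucagon arrays did not overlap the 3 insulin arrays, which held for 17.5% of all genes (8.95% upward and 8.52% downward). By size, 218 rose and 291 fell by over 1.5-fold, and 30 rose and 13 fell by over 4-fold. The largest rises were those of Pck1, Nr4a3 and G6pc, and the largest falls those of Rrad and Egr1. The experiment numbers paired the arrays, and with the experiment as a block 2027 genes passed (9.14%), 906 upward (4.08%) and 1121 downward (5.05%). All 775 were among them. The shares over all genes, 3.49% without the block and 9.14% with it, are the background for the counts of each gene list below. In fits without the block, the count was 181 without experiment 1, 301 without experiment 2 and 845 without experiment 3. With the block these 3 counts were 754, 930 and 1776. Again without the block, the count was 499 without the experiment 1 insulin array, 452 without that of experiment 2 and 496 without the glucagon array of experiment 1. Where a gene is said below not to pass without an experiment or an array, the fit had no block and did not use the pairing.

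**Figure D1:**
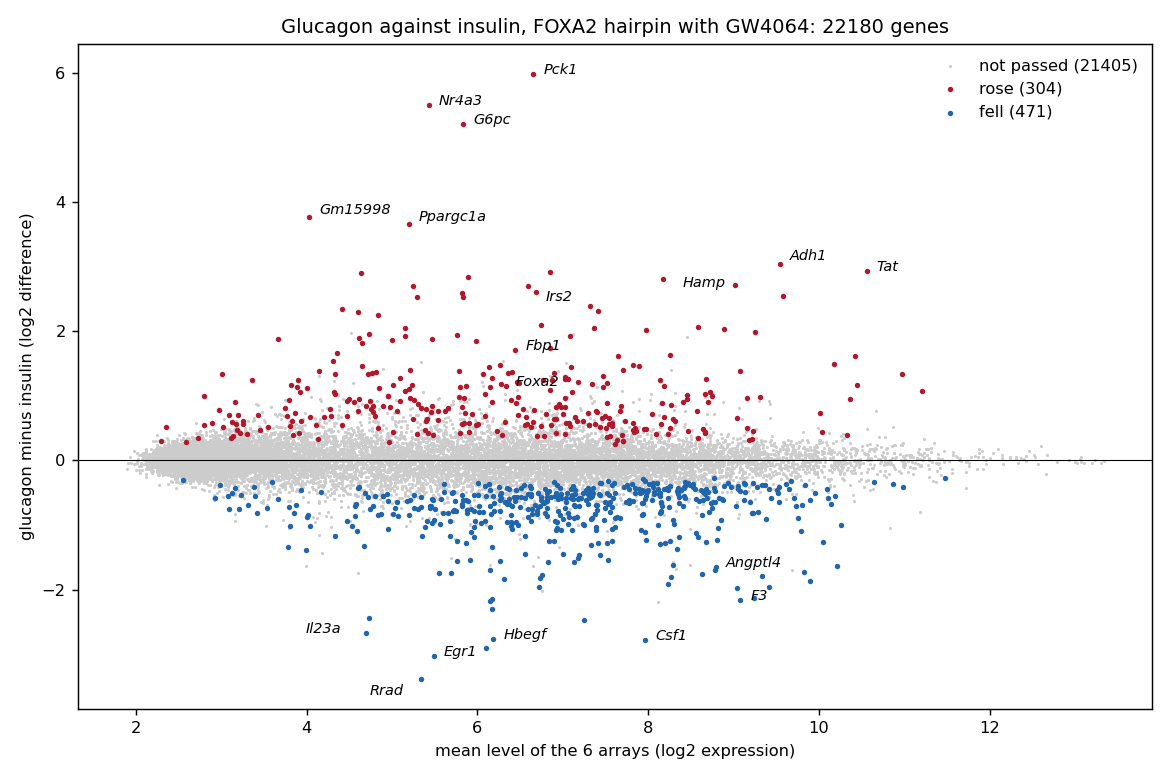
Log2 difference of glucagon minus insulin (vertical axis) against the mean level of the 6 arrays (horizontal axis, log2 expression) for 22180 genes in cells with the FOXA2 hairpin and GW4064. Red points are the 304 genes that rose, blue points the 471 that fell and grey points those that did not pass. Pck1, Nr4a3 and G6pc stand above 5, while Rrad and Egr1 stand below -3.

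Of 12 measured genes of the gluconeogenesis list, which make glucose, 6 rose, 0 fell and 6 did not pass, and the median difference was 0.68, against 0.01 over all genes. Pck1 encodes the cytosolic phosphoenolpyruvate carboxykinase, which commits oxaloacetate to glucose. On the insulin arrays of experiments 1, 2 and 3 it read 4.16, 3.14 and 3.70, and on the glucagon arrays 10.46, 8.01 and 10.47. The lowest glucagon array stood far above the highest insulin array, and experiment 2 was the lowest of both groups. The difference was 5.98 (SE 0.59, limma adjusted p = 2.73e-06). G6pc, the catalytic subunit of glucose-6-phosphatase that releases free glucose, read 3.43, 3.01 and 3.24 under insulin and 9.29, 7.19 and 8.84 under glucagon. Here too the groups were far apart and experiment 2 was lowest, and the difference was 5.21 (SE 0.46, adjusted p = 5.92e-07). The insulin levels of Pck1 and G6pc lay near the floor, so the fitted folds, 63.2 for Pck1 and 37.0 for G6pc, compare a clear signal with one close to background.

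Fbp1, fructose-1,6-bisphosphatase, was well above the floor under either hormone. It read 5.85, 5.15 and 5.76 under insulin and 7.66, 6.54 and 7.69 under glucagon. The groups did not overlap, and the difference was 1.71 (SE 0.39, adjusted p = 0.0146, 8.34e-07 with the block). Its call without the block was less firm than those of Pck1 and G6pc, which passed under all 16 alternative settings: Fbp1 passed under 10. The settings that left out an experiment or an array had no block, so they did not use the pairing. Every setting in which Fbp1 lost its call was a fit without the block. Its adjusted p was 0.206 without experiment 1 and 0.169 without experiment 3. Without single arrays it was 0.0863 and 0.0772 (glucagon, experiments 1 and 3) and 0.0965 (insulin, experiment 2), and the difference stayed between 1.49 and 2.09 over the settings.

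Ppargc1a encodes PGC-1alpha, the coactivator that couples cyclic AMP to fasting genes. It read 3.21, 3.02 and 3.85 under insulin and 6.80, 6.33 and 7.94 under glucagon, with experiment 3 highest in both groups, and rose by 3.66 (SE 0.55, adjusted p = 0.000355). Of the aminotransferase genes in the list, Got1 rose by 1.62 (SE 0.12) and Gpt2 by 0.95 (SE 0.17), and Gpt (0.40) did not pass. Got1 read 9.73, 9.59 and 9.50 under insulin and 11.15, 11.36 and 11.18 under glucagon, groups with little spread and a wide gap. The mitochondrial entry enzyme Pcx (0.27), the mitochondrial isoform Pck2 (0.05) and the glucose-6-phosphate transporter gene Slc37a4 (0.36) did not pass. Without experiment 1, Ppargc1a (adjusted p 0.0919) and Gpt2 (0.0548) did not pass.

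**Figure D2:**
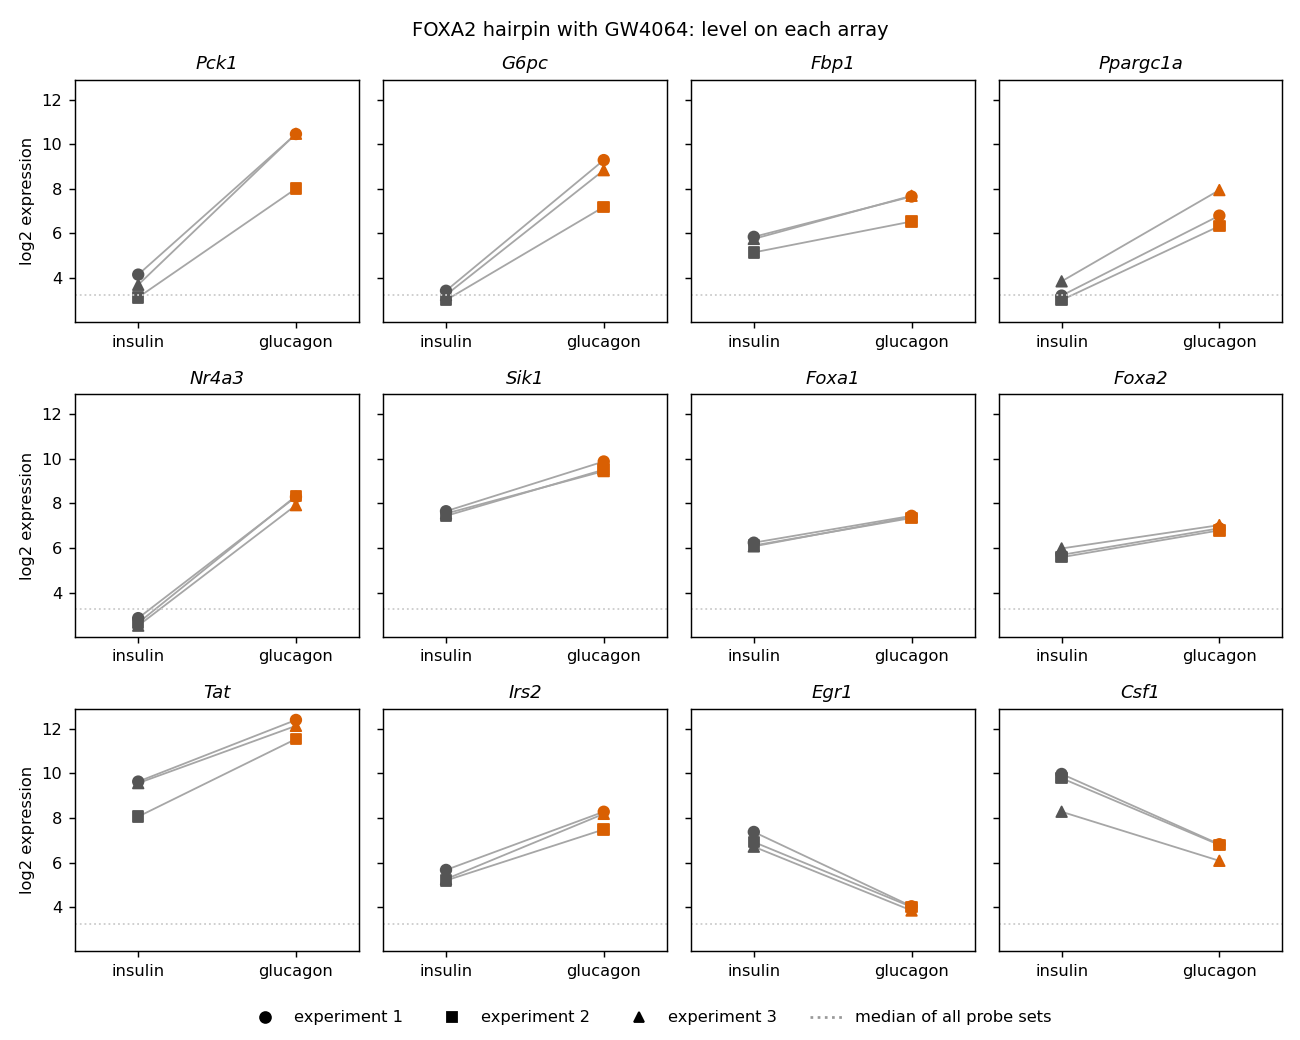
Log2 expression (vertical axis) of 12 genes on each of the 6 arrays with the FOXA2 hairpin and GW4064, insulin at left and glucagon at right of each panel. Symbols mark experiments 1 to 3, grey lines join arrays of the same experiment, and the dotted line is the median of all probe sets, 3.25. In every panel the 3 glucagon arrays lie apart from the 3 insulin arrays. Experiment 2 is lowest under both hormones for Pck1, G6pc, Fbp1, Ppargc1a, Foxa2, Tat and Irs2.

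Of 20 measured early targets of cyclic AMP and CREB, 9 rose, 1 fell and 10 did not pass, with a median of 0.44. Nr4a3, an orphan nuclear receptor gene that cyclic AMP induces, read 2.86, 2.64 and 2.52 under insulin and 8.29, 8.34 and 7.92 under glucagon. It went from the floor to a high level on all 3 arrays with little spread, a difference of 5.51 (SE 0.16, adjusted p = 1.44e-14). Its relative Nr4a1 read 4.33, 4.66 and 3.58 under insulin and was higher by 1.68, 1.34 and 2.76 under glucagon, most in experiment 3, where its insulin level was lowest. Its rise was 1.92 (SE 0.25). Nr4a2 read 5.53, 5.80 and 4.44 under insulin and 6.72, 6.40 and 5.23 under glucagon. Those groups overlapped because both arrays of experiment 3 were low, and the difference of 0.86 (SE 0.42) had an adjusted p of 0.39, or 0.00255 with the block.

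Sik1 encodes a kinase that restrains the CREB coactivators. It rose by 2.07 (SE 0.15), from 7.65, 7.44 and 7.55 under insulin to 9.88, 9.51 and 9.45 under glucagon. Igfbp1, a secreted IGF-binding protein of fasting, rose from 9.44, 9.47 and 9.37 to 11.16, 10.61 and 11.01 (adjusted p = 4.47e-05). Klf15, a regulator of amino acid use, rose by 2.06 (SE 0.41). Of the genes for phosphodiesterases, which break cyclic nucleotides down, Pde10a rose by 1.12, Pde4b by 0.90 and Pde4d by 0.35, and in the list of the receptor and PKA, Pde3b by 0.61. Pde3a (-0.08), Pde4a (0.23), Pde7a (0.09), Pde7b (-0.01) and Pde8a (0.39), of that second list, did not pass. The one fall among the CREB targets was that of Junb, -1.28 (SE 0.29), a gene that ERK signalling also drives. Atf3 (-1.68), Fos (-0.38), Crem (0.51) and Per1 (0.01), also listed as CREB targets, did not pass. With the block 11 of the 20 rose and 2 fell. Klf15 did not pass without experiment 1 or without experiment 2 (highest adjusted p 0.153), and Junb did not without either of these, the insulin array of either or the glucagon array of experiment 1 (highest 0.258).

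Of 24 measured genes of the list of the glucagon receptor, cyclases and PKA, 3 rose and 1 fell (16.7% passed, against 3.49% of all genes), and the median was 0.05. Gcgr, the glucagon receptor gene, read 3.73, 2.96 and 3.22 under insulin and 3.77, 2.85 and 3.74 under glucagon, close to the floor with overlapping groups. The adenylyl cyclase gene Adcy9 rose by 1.37 (SE 0.23) and the kinase gene Sik3 by 0.72 (SE 0.16). Prkacb, a catalytic subunit of PKA, fell by 0.50 (SE 0.07), while Prkaca, the other catalytic subunit, differed by 0.13 and did not pass. Adcy9 did not pass without experiment 1, Prkacb without experiment 2, nor Pde3b and Sik3 without either (highest adjusted p 0.11, 0.0699, 0.171 and 0.215).

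The forkhead genes Foxa1 and Foxa2 rose under glucagon although the cells carried the FOXA2 hairpin. Foxa2 read 5.70, 5.59 and 5.98 under insulin and 6.89, 6.79 and 7.03 under glucagon, groups that were separate and narrow. The difference was 1.15 (SE 0.14, adjusted p = 5.25e-05), a 2.21-fold rise. It passed under all 16 alternatives. With the lacZ hairpin and GW4064 the means were 6.14 under insulin and 7.31 under glucagon, so the glucagon level in hairpin cells, 6.90, was above the insulin level of control cells. Foxa1 rose from 6.24, 6.12 and 6.08 to 7.45, 7.35 and 7.40, a difference of 1.25 (SE 0.11, adjusted p = 5.92e-07). Foxa3 read 6.94, 6.61 and 7.05 under insulin and 6.61, 6.36 and 6.86 under glucagon, and its difference of -0.25 (SE 0.17) did not pass. Foxo1, the forkhead factor that insulin holds in check, was the other of 3 rises among 21 liver transcription factor genes, at 0.49 (SE 0.11). With the block 8 rose and 1 fell. Hnf4a (0.93), Onecut1 (0.92) and Prox1 (1.03), which specify hepatocytes, did not pass without the block.

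Of 16 measured genes of the list of FXR and its targets, 0 rose and 0 fell, where 3.49% of all genes passed, so the count says nothing particular of the list. With the block 1 rose and 2 fell, where 9.14% of all genes passed. The receptor gene Nr1h4 read 5.95, 5.29 and 6.15 under insulin and 5.53, 5.55 and 5.06 under glucagon. The groups overlapped, and the difference was -0.42 (SE 0.27, adjusted p = 0.613). Abcb11, the bile salt export pump gene, read 4.92, 4.81 and 5.96 under insulin and 4.33, 4.36 and 4.89 under glucagon. It was lower within each experiment, but the groups overlapped because experiment 3 was high in both, and the difference of -0.71 (SE 0.41) had an adjusted p of 0.527, or 0.00241 with the block. Osgin1 had the largest difference of the list, -1.70, with an adjusted p of 0.0635. Slc51a, a subunit of the basolateral bile acid exporter, and Cyp7a1, the rate-limiting enzyme of bile acid synthesis, stood between 2.36 and 2.73 on all 6 arrays, at the floor. Among the 16 genes of bile acid synthesis and uptake the transporter gene Slco2b1 rose by 0.81 (SE 0.18), and with the block 3 rose. Slco2b1 did not pass without experiment 1 or 2, the glucagon array of experiment 3 or the insulin array of experiment 2 (highest adjusted p 0.227).

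In amino acid breakdown and the urea cycle, 30 genes were measured. Of these, 22 did not pass, 8 rose and 0 fell, with a median of 0.51, and with the block 16 rose. Tat, tyrosine aminotransferase, read 9.64, 8.06 and 9.57 under insulin and 12.40, 11.54 and 12.13 under glucagon, groups that were apart, with experiment 2 lowest in both. It rose by 2.94 (SE 0.51, adjusted p = 0.00158). Slc25a15, which carries ornithine into mitochondria for the urea cycle, rose by 2.80 (SE 0.22), from 6.60, 6.49 and 7.23 to 9.58, 9.21 and 9.93. Aass, an enzyme of lysine breakdown, rose by 2.91 (SE 0.66), from 5.28, 4.09 and 6.81 to 8.11, 7.49 and 9.31. Its arrays within a group spread widely but each experiment rose by a like amount, and its adjusted p was 0.0136, or 4.69e-07 with the block.

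Etnppl, which degrades phosphoethanolamine, rose by 2.84 (SE 0.36), Slc7a2, an importer of arginine and lysine, by 2.54 (SE 0.21), and Aldh4a1, of proline breakdown, by 1.97 (SE 0.20). The urea cycle enzymes themselves differed less: Cps1 by 0.87, Otc by 0.32, Ass1 by 0.31 and Arg1 by 1.54, and none of these passed. Aass passed under 10 of 16 settings. It did not pass without experiment 1 or 2, nor without the insulin array of either or the glucagon array of experiment 3 (highest adjusted p 0.358). The other 5 of these named genes passed under all 16.

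In insulin signalling, 4 of 19 measured genes rose and 0 fell, with a median of 0.41, and 9 rose with the block. Irs2, the docking protein of the insulin receptor whose gene FOXO1 induces, read 5.67, 5.20 and 5.26 under insulin and 8.28, 7.49 and 8.19 under glucagon. The groups were far apart, and the difference was 2.61 (SE 0.22, adjusted p = 5.82e-07). Ccng2, a FOXO target, rose by 1.36 (SE 0.23) and Irs1 by 1.25 (SE 0.31), the latter from levels at the floor (2.70, 2.62 and 2.90). The receptor gene Insr (0.25) and the kinase genes Akt1 (0.09) and Akt2 (0.01) did not pass. Irs1 and Foxo1 lost their calls on leaving out any of the 3 experiments (highest adjusted p 0.298 and 0.528), and Ccng2 on leaving out experiment 1 (0.168). Irs1 and Foxo1 also lost them when the mean over probe sets was used, so these calls depend on the choice of probe set. Irs1 passed under 6 of 15 settings and Foxo1 under 7 of 16, with differences as low as 0.62 and 0.29.

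In fatty acid oxidation 2 of 18 genes rose and 1 fell (3 and 2 with the block). Cpt1a, whose enzyme lets fatty acids into mitochondria, rose by 1.99 (SE 0.14), from 8.46, 8.01 and 8.31 to 10.26, 10.19 and 10.30. Cpt2, the next enzyme, rose by 0.36 (SE 0.10), and Angptl4, a secreted inhibitor of lipoprotein lipase, fell by 1.65 (SE 0.18). Lpin1, a phosphatidate phosphatase that also coactivates oxidation genes, was the one rise among 16 lipogenesis genes (3 with the block), at 1.48 (SE 0.33). Fasn (0.07), Acaca (0.02) and Srebf1 (0.22), the core of fatty acid synthesis, did not pass. Pmvk (1.02, SE 0.19) was the one rise among 16 genes of cholesterol synthesis and uptake, where the median was 0.37 and 8 rose with the block. Of 15 glycogen and glucose-handling genes 0 passed, and 2 rose with the block. Cpt2 passed under 6 of 16 settings, Lpin1 under 10 and Pmvk under 14, and each lost its call on leaving out at least 1 experiment (highest adjusted p 0.497, 0.142 and 0.166).

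**Figure D3:**
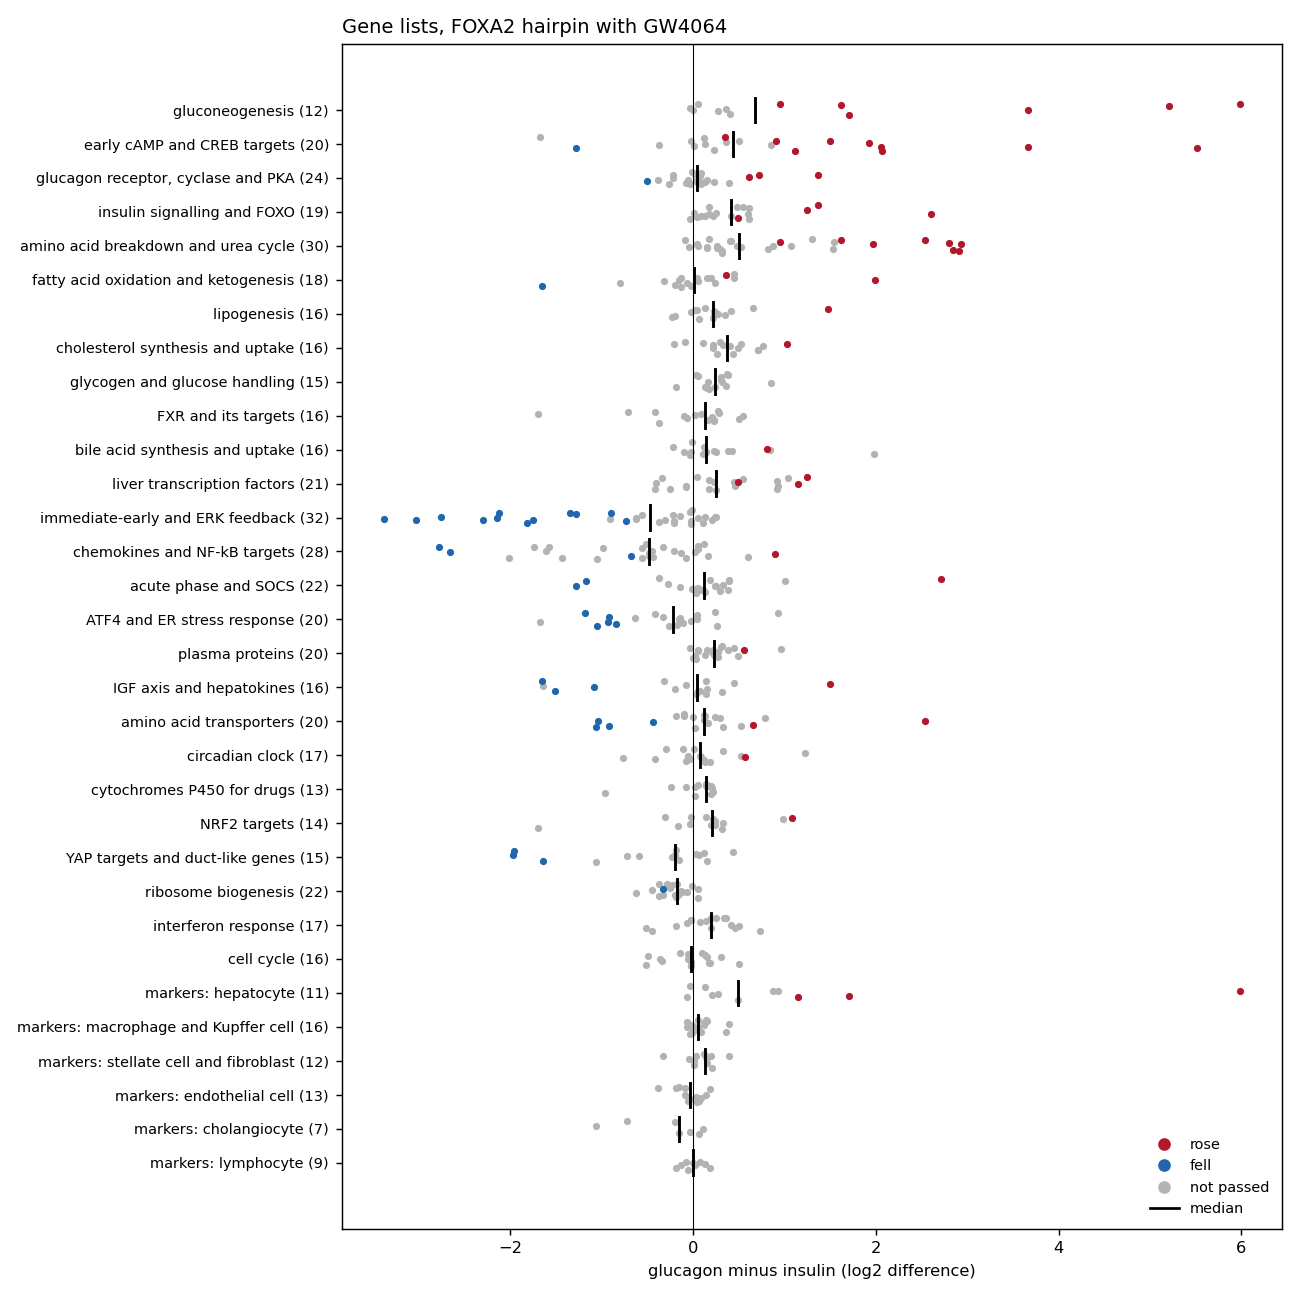
Log2 difference of glucagon minus insulin (horizontal axis) for the measured members of each gene list, whose number follows its name, in cells with the FOXA2 hairpin and GW4064. Red points rose, blue points fell, grey points did not pass, and black bars are medians. The lists of gluconeogenesis and amino acid breakdown hold only rises among the members that passed, while the list of immediate-early and ERK feedback genes holds only falls among them.

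Immediate-early genes are those that growth factor signalling through ERK switches on within minutes. Of 32 measured genes in a list of them and of feedback genes of ERK, 0 rose, 12 fell and 20 did not pass, with a median of -0.47, and 16 fell with the block. Egr1, a zinc finger factor, read 7.38, 6.93 and 6.72 under insulin and 4.05, 4.02 and 3.85 under glucagon, with a wide gap between the nearest arrays. It fell by 3.03 (SE 0.20, adjusted p = 1.18e-08). Rrad, a small GTPase, read 7.30, 7.70 and 6.10 under insulin and 3.53, 3.70 and 3.74 under glucagon, near the floor, and fell by 3.38 (SE 0.47). Hbegf, a ligand of the EGF receptor, fell by 2.76 (SE 0.16), from 7.67, 7.50 and 7.52 to 4.77, 4.77 and 4.87, so its arrays hardly spread within either group. Ier2 fell by 2.14 (SE 0.22), while Phlda1 went from 7.60, 7.32 and 7.04 to 4.59, 5.43 and 5.05 and Ier3 fell by 2.13 (SE 0.57). Of the feedback genes, Dusp6 (-1.82), which encodes a phosphatase of ERK, Spry1 (-1.34) and Spry4 (-0.73) fell. Spry2 (-0.14), Spred1 (-0.02), Dusp2 (0.11), Dusp4 (-0.04), Dusp5 (-0.63) and Errfi1 (0.24) did not pass. Myc fell by 0.90, while Fos (-0.38), Jun (-0.62) and Dusp1 (-0.02) did not pass. Rrad did not pass without experiment 1 (adjusted p 0.081) and Phlda1 without experiment 2 (0.0928). Ier3 passed under 7 of 16 settings (highest adjusted p 0.403).

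Of 15 measured genes of a list of YAP targets and duct-like genes (YAP is a growth coactivator), 3 fell and 0 rose, and with the block 5 fell. Ankrd1 fell by 1.97 (SE 0.41), Ccn2 by 1.96 (SE 0.30) and Ccn1 by 1.64 (SE 0.28). Ccn2, a matrix protein, read 10.20, 10.77 and 10.20 under insulin and 8.10, 8.99 and 8.20 under glucagon, with experiment 2 highest in both groups. Ankrd1 did not pass without experiment 2, nor without the glucagon array of experiment 1, Ccn2 did not without experiment 1, and Ccn1 did not without either of these experiments (highest adjusted p 0.17, 0.0773 and 0.126).

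Among 28 chemokine and NF-kB target genes, 3 fell and 1 rose, and with the block 6 fell and 1 rose. Csf1, the macrophage growth factor, read 9.98, 9.79 and 8.28 under insulin and 6.83, 6.80 and 6.08 under glucagon. The groups did not overlap, though experiment 3 stood low under both hormones, and Csf1 fell by 2.78 (SE 0.55, adjusted p = 0.00505). Il23a, a cytokine subunit, fell by 2.66 (SE 0.42), from 6.44, 6.22 and 5.41 to 3.28, 3.35 and 3.45, and Relb, a subunit of NF-kB, fell by 0.68. Bcl3, a nuclear cofactor of NF-kB, rose by 0.89. The chemokine genes Cxcl1 (-2.02) and Cxcl2 (-1.74) and the NF-kB inhibitor Tnfaip3 (-1.61) had large differences that did not pass. The mean level of the 28 genes was 6.35, 6.39 and 5.89 on the insulin arrays and 5.41, 5.54 and 5.67 on the glucagon arrays, so the difference in experiment 3 (-0.22) was smaller than in experiments 1 (-0.95) and 2 (-0.85). With the lacZ hairpin and GW4064 the same mean in experiment 3 was higher under glucagon (6.25) than under insulin (5.69). With the FOXA2 hairpin and DMSO experiment 3 was not weaker: the differences were -0.95, -1.06 and -1.04 in experiments 1, 2 and 3. There 11 of the 28 genes fell and 1 rose. Csf1 did not pass without experiment 1 or 2 (highest adjusted p 0.211), nor Il23a without experiment 2 (0.0949), Relb without either (0.153) or Bcl3 without experiment 1 (0.0687).

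The response to amino acid shortage and ER stress, which the factor ATF4 drives, held 5 falls and 0 rises among 20 genes, and 10 falls and 1 rise with the block. Ppp1r15a, a phosphatase subunit that restarts translation, fell by 1.05 (SE 0.14), Cebpg by 0.85 (SE 0.09), Ddit3 (CHOP) by 1.18, Nupr1 by 0.93 and Sesn2 by 0.92. Of 20 measured amino acid transporter genes, 4 fell and 2 rose. Among the falls were Slc7a1 by 1.07 (SE 0.15), Slc1a4 by 1.04 (SE 0.23) and Slc7a5 by 0.92 (SE 0.15). Slc7a5 read 9.31, 9.24 and 9.39 under insulin and 8.51, 8.37 and 8.32 under glucagon, a small and even step. The rises were those of the arginine carrier Slc7a2 and the aromatic amino acid carrier Slc16a10. Slc7a11 (0.24), Slc1a5 (0.29) and Slc38a2 (-0.10) did not pass. Atf4 itself (-0.17), Asns (-0.15), Atf3 (-1.68) and, in the other direction, Dnajb9 (0.92) did not pass. Ddit3, Nupr1, Sesn2 and Slc1a4 lost their calls on leaving out at least 2 of the experiments in turn (highest adjusted p 0.309, 0.187, 0.217 and 0.279), and Slc16a10 on leaving out any (0.338).

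Hamp, the iron hormone hepcidin, read 7.95, 7.83 and 7.21 under insulin and 10.14, 10.41 and 10.58 under glucagon, groups that were far apart, and rose by 2.71 (SE 0.45, adjusted p = 0.00104). It was the one rise of 22 acute-phase genes, in which the cytokine-signalling inhibitors Socs2 (-1.28, SE 0.30) and Cish (-1.18, SE 0.22) fell. Angptl8, an insulin-induced inhibitor of lipoprotein lipase, fell by 1.51 (SE 0.34) and Inhbe, an activin subunit, by 1.08 (SE 0.26). With Angptl4 these were the 3 falls among 16 genes of the IGF axis and hepatokines, in which Igfbp1 was the one rise. F5, coagulation factor V, was the one rise of 20 plasma protein genes, at 0.56, and 7 rose with the block. F3, tissue factor, fell by 2.16 (SE 0.44), from 10.22, 10.29 and 9.97 to 7.24, 8.15 and 8.59. Hamp and F3 did not pass without experiment 2 (adjusted p 0.0678 and 0.215), and Socs2, Cish, Angptl8, Inhbe and F5 each lost their calls on leaving out at least 2 experiments in turn (0.465, 0.184, 0.42, 0.233 and 0.298).

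Of the remaining large changes, Adh1, alcohol dehydrogenase, rose by 3.05 (SE 0.58), from 8.34, 6.75 and 8.96 to 10.98, 10.87 and 11.34. Rgs2, a brake on G-protein signalling, rose by 2.90 (SE 0.42) and Gm15998, a predicted gene, by 3.76 (SE 0.56). Map2k3os fell by 2.90 (SE 0.38), Frmd6, a regulator of the Hippo pathway, by 2.46 (SE 0.34), Fhl2, a LIM-domain cofactor, by 2.18 (SE 0.42) and the pseudogene Hmga2-ps1 by 2.44 (SE 0.58). In other lists single genes passed: Gclc, of glutathione synthesis, rose by 1.08 (1 of 14 NRF2 targets, 3 with the block), the clock gene Rora by 0.57 (1 of 17, also 3 with the block), and Nop14 fell by 0.33 (1 of 22 ribosome biogenesis genes, 8 with the block). No gene passed among 13 drug-metabolising cytochromes P450, 17 interferon response genes or 16 cell cycle genes, where 0, 2 and 1 rose with the block. Of all genes 3.49% passed, and 4.08% rose with the block, so the counts of these last 3 lists say nothing particular of them. The same holds for a single call in a list without the block. With the block, the 3 rises of 14 NRF2 targets and of 17 clock genes stood above that 4.08%. The 8 ribosome biogenesis genes of 22 were all falls, where 5.05% of all genes fell with the block. Of these 22 genes 2 had a difference above 0, against 11862 of all 22180, and their median was -0.18. No test of a list was made. Adh1, Gm15998, Map2k3os and Frmd6 did not pass without experiment 1 (adjusted p 0.177, 0.0948, 0.0741 and 0.0724), Rgs2 without experiment 2 (0.0518) and Fhl2 without experiment 3 (0.0843). Hmga2-ps1, Gclc, Rora and Nop14 each lost their calls without experiment 1 and without experiment 2 (highest adjusted p 0.424, 0.488, 0.188 and 0.435).

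The same hormone contrast was measured in FOXA2-hairpin cells with DMSO and in lacZ-hairpin cells with GW4064, on other arrays of the same 3 experiments. With DMSO 1062 genes passed (4.79%), of which 470 rose (2.12%) and 592 fell (2.67%). Of the rises with GW4064, 240 (78.9%) also rose with DMSO, which is 51.1% of the rises there. Of the falls, 361 (76.6%) were shared, 61.0% of those with DMSO. In lacZ-hairpin cells with GW4064, 686 genes passed (3.09%), of which 287 rose (1.29%) and 399 fell (1.8%). They shared 212 rises (69.7% of those in FOXA2-hairpin cells, 73.9% of those in lacZ-hairpin cells) and 301 falls (63.9% and 75.4%). No gene was called in opposite directions. Over the 22180 genes, which share their arrays and so are no replicates, the differences correlated at 0.815 with those under DMSO and at 0.821 with those of lacZ-hairpin cells.

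Tests of the difference between these responses called no gene. For hormone by GW4064 in FOXA2-hairpin cells, 0 genes passed (limma), 673 had an unadjusted p under 0.05 (3.03%), and 0 passed with the block. For hormone by hairpin under GW4064, 0 passed, 562 had an unadjusted p under 0.05 (2.53%), and 0 passed with the block. The median SE of such a difference was 0.18, so modest differences of single genes were below what 3 arrays a group could show. Pck1 rose by 5.98 here, by 5.92 with DMSO and by 6.20 with the lacZ hairpin, and the 95% intervals of the differences reached from -1.68 to 1.81 and from -1.96 to 1.53. For G6pc the rises were 5.21, 5.07 and 4.96. Fbp1 rose by 1.71 here, and its differences were 0.95 with DMSO and 1.35 with the lacZ hairpin, with intervals from -0.40 to 1.91 and from -0.79 to 1.51 for the gap. Foxa2 rose by 1.15, 1.25 and 1.17. These intervals are wide, so they do not show that the responses were alike. The genes with the smallest interaction p had adjusted p of 1.00, such as Hspa2 (0.70 here, 0.01 with DMSO) and Vmac (0.69 here, -0.0029 with DMSO and 0.05 with the lacZ hairpin). Their levels lay between 3.00 and 4.76.

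**Figure D4:**
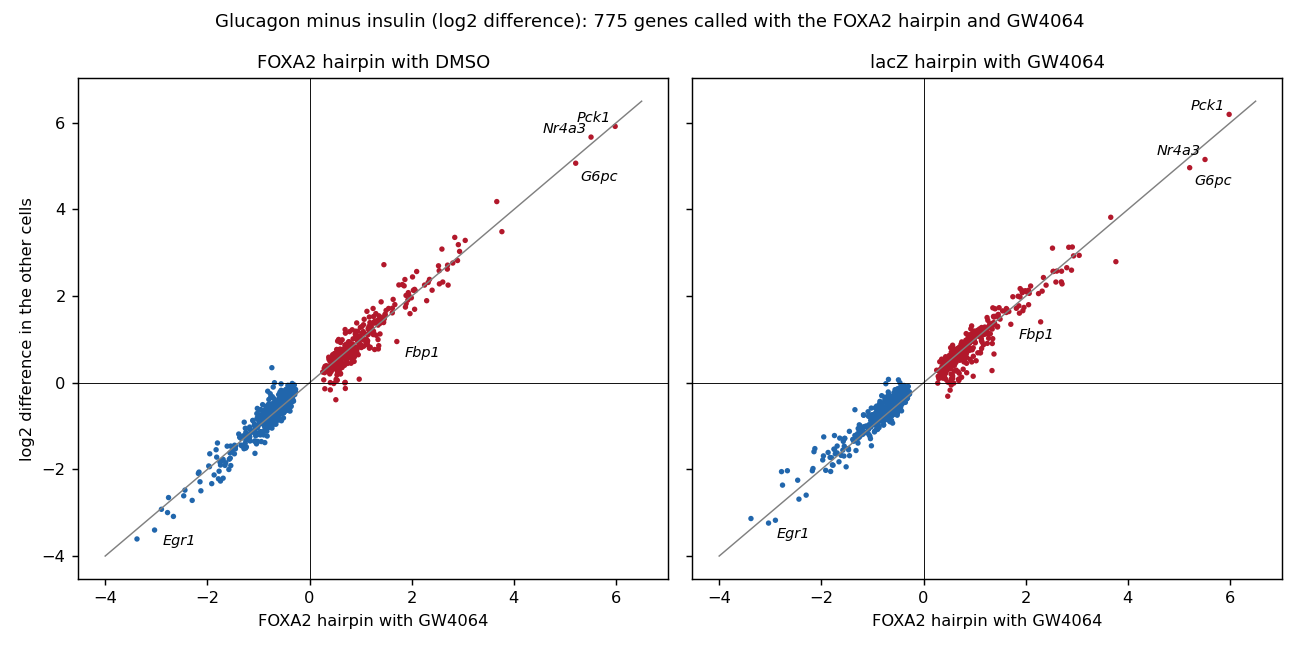
Log2 difference of glucagon minus insulin for the 775 genes called in FOXA2-hairpin cells with GW4064 (horizontal axis) against the difference for the same genes in FOXA2-hairpin cells with DMSO (left) or lacZ-hairpin cells with GW4064 (right, vertical axes). Red genes rose and blue genes fell on the horizontal axis, which chose them, and the grey line marks equal differences. Of the 775 genes, 767 have the same sign in each of the other responses.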

How the data were processed

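The values are the log2 expression values the authors deposited, 24 columns for 41345 probe sets. Per the series' design text, technical replicates were pooled by sample and GeneSpring was used. The normalization is not given in the sources used here, and the log2 scale was read from the values (1.46 to 13.5). Probe sets were named by the platform annotation. Those with 1 symbol (23521) were used, and a gene with several was represented by that of the highest mean, which gave 22180 genes. Genes found only on probe sets with several symbols, such as Slc51b, were not analysed here.

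Differences were tested with limma 3.58.1 (lmFit, eBayes; R 4.3.3) on all 24 arrays with 1 mean per group and 16 residual degrees of freedom. P-values were Benjamini-Hochberg adjusted over all genes, with a threshold of 0.05, and are two-sided. They measure the spread between experiments, and the number of arrays limits the precision (median SE 0.13). Deviations from the group means correlated in all 84 pairs of arrays of the same experiment, at 0.374 to 0.698, so the numbers pair the arrays. An alternative fit had the experiment as a block (14 degrees of freedom). Fits that left out an experiment or an array had no block unless it is named.

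Named were a core of 17 genes, the 12 largest rises and 12 largest falls, up to 6 passing members of each gene list plus any against its direction, and the 5 genes of smallest p in each interaction. Other list members are given with their values and as not passed. The comparison, members and lists were chosen with earlier results of these data known. Promoters came from a RefSeq table (GRCm38.p6), matched by symbol. The fit was tested on simulated data with independent noise on each array. That test did not cover the correlation between arrays of the same experiment.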

Additional observations from a re-analysis of the deposited data

How the results depend on the processing

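The count of 775 genes was 2027 with the experiment as a replicate block, 316 in a fit of the 6 arrays alone and 1275 in that fit with the block, which was added after the data were seen. Leaving out 1 experiment at a time gave 181 to 845 genes, and 754 to 1776 with the block. Leaving out 1 array at a time gave 452 to 663. Centring each array on its median gave 804 genes (282 higher, 522 lower), quantile normalization 743 (316 and 427), a filter on dim genes 897, means over probe sets 761 and a trended robust prior 704. The 2 interaction tests called 0 genes under every setting run. For GW4064 against DMSO the count was 2 with the block, 1 in a fit of its own arrays alone with the block, and 0 to 2 on leaving out an experiment with the block.

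Of the 78 named genes that passed, 25 passed under every alternative in which they were tested, 16 for each but Hspa2, which had 15. In fits without the block, 41, 37 and 16 of the 78 did not pass without experiments 1, 2 and 3. With the block and all experiments, 0 were lost. Values near 0 changed sign for Gcgr, Nr0b2 and Cyp7a1 as samples were left out. The Gcgr difference ranged from -0.038 to 0.45 (below 0 without experiment 3 or 2 of the single arrays), that of Nr0b2 from -0.21 to 0.11 and that of Cyp7a1 from -0.065 to 0.034, and with the block too it was -0.038 for Gcgr and 0.11 for Nr0b2 without experiment 3 and 0.017 for Cyp7a1 without experiment 1. The cause was not tested. With 3 arrays a group and a floor near 3, small differences of dim genes could not be resolved.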

Other observations

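Across the 3 responses compared, 195 genes rose and 270 fell in all of them, while 47 rises and 79 falls were called in FOXA2-hairpin cells with GW4064 and in neither of the others. The interaction tests called none of these as different. Among the 775 genes the median size of the difference was 0.77, 0.70 and 0.65 in the 3 experiments in turn, and experiment 1 gave the largest of the 3 values for 348 genes. Of the 304 rises, 67 started from an insulin mean below 4, and 33 of the 471 falls ended at a glucagon mean below 4, where the floor of the array compresses a difference.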
